A study of Mus musculus with 5 samples.

Results

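Fibroblasts of carcinogen-induced mouse colon tumors were set beside fibroblasts of the normal mouse colon in 5 single-cell libraries. A cell counted as a fibroblast when the UMIs (unique molecular identifiers, each standing for 1 captured RNA molecule) of Dcn, Lum, Pcolce, Col5a2, Fstl1 and Col6a3 summed to at least 5 and when the endothelial genes Pecam1 and Cdh5 and the macrophage gene Csf1r had none. Of 8491 cells with at least 500 genes and at most 15% mitochondrial UMIs, 522 passed, of which 143 came from the 7396 tumor cells and 379 from the 1095 cells of the normal library. The tumor libraries (13, 33, 24 and 73 gated cells) came from wild-type mice with tumors raised by AOM/DSS, the carcinogen azoxymethane followed by the colitis-causing polymer dextran sulfate, and treated with 5-fluorouracil (5FU) and Irinotecan, 2 cytotoxic drugs. Day 1 had 2 replicates, and day 3 and day 6 had 1 library each. Day 1 replicate 1 and day 3 had a single index and were read on another sequencer than the dual index libraries, which were day 1 replicate 2, day 6 and normal. The normal library came from untreated wild-type colon taken apart by a protocol for fibroblasts. Tumors went through the usual dissociation, in which crypt fragments held back by a filter were kept and the cells that passed it were thrown away, so that tumor, drugs and dissociation cannot be told apart. The labels give no age or sex and do not say how many animals a library holds.

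UMIs of the gated cells were summed per library, and a gene was described by its UMIs per 1000000 UMIs of that sum (CPM, counts scaled to a common total), in the order day 1 replicate 1, day 1 replicate 2, day 3, day 6. The genes below were chosen by this same difference, so their levels are a description and carry no test. The normal group is 1 library, so the spread between normal animals was not measured, and intervals are exact 95% intervals of a count or of the ratio of 2 counts, which cover counting error only. A fold is that between normal and the nearest tumor library. In such sums a smaller number of cells of a type and less RNA per cell cannot be told apart.

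Fibroblasts make and remodel the collagen-rich matrix of the gut wall. In the mucosa they also feed the epithelium with BMP and WNT proteins and their antagonists, and they guide immune cells with chemokines. Cancer-associated fibroblasts (CAFs) are known for contractile, matrix-degrading and inflammatory programs. The gate genes encode proteins of that matrix: decorin (Dcn) and lumican (Lum) are small proteoglycans, Pcolce helps trim procollagen, Col5a2 and Col6a3 are collagen chains, and Fstl1 is a secreted glycoprotein.

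The gate was checked against its own genes. Dcn stood at 1935, 3507, 2541 and 3672 CPM in the tumor libraries and at 7082 in normal. Lum went against the label, with 0, 0, 0 and 13.4 CPM in the tumor libraries and 526 in normal, where 221 of 379 cells held a UMI. Its 645 normal UMIs faced 5 in day 6 and 0 in the other tumor libraries. Col5a2 (702, 1150.2, 171 and 281 against 572) and Fstl1 (861, 1254, 180.1 and 460.0 against 1212) overlapped the normal value. The 6 genes together reached 3670, 6182, 3043 and 4632 CPM against 9732. Sums held 75470, 232126, 105487 and 373905 UMIs in the tumor libraries and 1227280 in normal, and the deepest cell supplied 27.8%, 9.18%, 13.5%, 5.50% and 1.55% of them. At the edge of the gate, 1 of 13, 0 of 33, 6 of 24, 15 of 73 and 17 of 379 gated cells held exactly 5 UMIs. Just below the gate, 1, 2, 3, 25 and 21 cells held 4.

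Epithelial RNA was present in the gated tumor cells. Counted over 12 keratin and columnar genes, each gated cell held a median of 18, 16, 25 and 59 epithelial UMIs in the tumor libraries (lowest 9, 4, 9 and 11) and of 1 in normal. More epithelial than gate UMIs were found in 7 of 13, 10 of 33, 19 of 24 and 55 of 73 tumor cells and in 16 of 379 normal cells. Krt5, a keratin of squamous epithelium, stood at 1444, 1973, 720.5 and 3485 CPM in tumor sums and at 0 in normal. Summed over 10 squamous markers the level was 5141 to 13204 CPM in tumor and 156 in normal, with 5 of the 10 at 0 in normal. Columnar markers (10 genes) summed to 2908 to 7954 CPM against 2314, and goblet markers (7 genes) to 1116 to 6570 against 1100.0. Plasma and B cell markers (7 genes, 2 at 0 in every tumor library) summed to 133 to 7900 CPM against 3716, and macrophage markers to 133 to 422 against 161. Neutrophil markers summed to 32.1 to 461 CPM against 4.07, with 6 of 7 at 0 in normal. Endothelial markers reached 9.48 to 306 CPM against 101. T cell (32.1 to 94.8 CPM against 8.15), lymphatic (40.1 to 75.8 against 56.2), glial (75.8 to 119 against 278), mesothelial (0 to 29.4 against 2.44) and mast and Cajal cell markers (172 to 276 against 146) made up the rest. Mural cells (at least 3 UMIs of Rgs5, Kcnj8, Myh11, Actg2 and Des) numbered 1, 9, 0 and 2 in tumor and 74 in normal. The part of these other cells' RNA in the differences below was not tested, but the levels and calls of tumor against normal were also computed in cells with at least 0.5% of their UMIs from the gate genes (6, 23, 8, 35 and 272 cells), referred to as fibroblast-rich cells. These too held other cells' RNA, with squamous markers at 695 to 4162 CPM against 49.5 in normal, columnar markers at 2348 to 6298 against 732 and neutrophil markers at 47.7 to 1790 against 2.68.

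**Figure D1:**
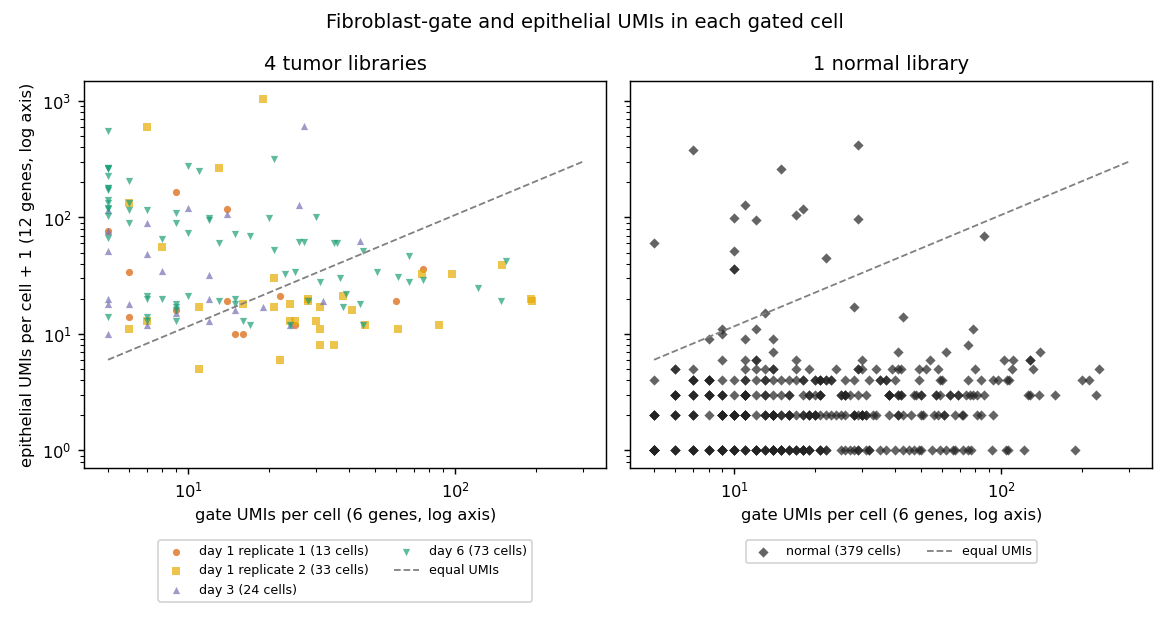
Each point is 1 gated cell, placed by its UMIs of the 6 gate genes (x, log axis) and its UMIs of 12 epithelial genes plus 1 (y, log axis), with the 4 tumor libraries on the left and the normal library on the right. Above the dashed line of equal UMIs or on it lie most day 3 and day 6 cells, while most normal cells lie below.

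Of 4233 genes with a mean level of at least 50 CPM over tumor and normal, the normal level lay below all 4 tumor libraries for 1086 (25.7%) and above all 4 for 965 (22.8%). A gene was called when the normal level was also at least 2 times beyond the nearest tumor library, a count of 0 being set at 3 counts, with separate counting intervals. This gave 170 genes higher in tumor (4.02% of the genes examined) and 292 lower in tumor (6.90%). At the edge of the rule, Slc3a2 (2.02-fold) was just inside and Reep4 (1.997-fold) just outside on the higher side, and Hspa5 (2.004-fold) and Il6ra (1.9993-fold) on the lower side. Most genes higher in tumor were not particular to the gated cells: 11 of the 170 had at least 2 times the level of the other cells of the same library in all 4 tumor libraries, against 229 of the 292 lower genes in the normal library. In the other cells of the same libraries, 58 of the 170 and 84 of the 292 were called in the same direction. Fibroblast-rich cells kept 59 higher and 89 lower calls, and the sign held for 168 and 290. The scale mattered for the lower genes: relative to the summed gate genes rather than to all UMIs, only 84 of the 292 stayed called. All 170 higher genes stayed called, but the gate genes summed to less in each tumor library, so that scale raised tumor against normal throughout. It is therefore no check on the higher genes, here or in the versions counted below. Calls over all genes then stood at 926 higher and 84 lower. With TMM factors the count was 103 higher and 476 lower. Within the dual index libraries alone it was 383 and 407, but a range over fewer tumor libraries cannot be wider, so such counts tend to rise by construction. A total of 39 higher and 38 lower genes were called under the main rule, in fibroblast-rich cells, without cells richer in epithelial than gate UMIs, on the scale of the gate genes, and without the top cell of each gene. Genes in that group are marked below as called in every version. Of the 39 higher ones 3 (Mmp10, Saa3 and S100a4) were at 2 times the other cells, and 4 were squamous markers, so the mark does not set a gene apart from other cells' RNA. Of the 38 lower ones 26 were at 2 times the other cells of the normal library, where they had been chosen for a high level.

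Keratin genes had the widest gaps of all genes higher in tumor (Krt5, at least 295-fold), and 6 of 8 squamous markers were called higher. Among the 11 higher genes at 2 times the other cells, 3 were metalloproteinases, secreted enzymes that cut matrix, and Mmp13 had the widest gap. Mmp13, a collagenase, stood at 186, 2749, 246 and 1121 CPM in the tumor libraries and at 0.815 in normal, where 1 UMI was counted. The nearest tumor library was higher (228-fold, interval 34.6 to 9626), and in the other cells of the tumor libraries Mmp13 stood at 56.8, 27.1, 9.92 and 11.1 CPM. Mmp10, a stromelysin, stood at 119, 2068, 322 and 580.4 CPM against 4.89 (24.4-fold, interval 7.75 to 83.3). It was the only metalloproteinase called higher in every version. Mmp3, the other stromelysin, had 119, 1379, 521 and 69.5 CPM against 14.7 (4.74-fold, interval 2.50 to 9.18). Day 1 replicate 2 was the highest library for each of these 3 genes, and no tumor library overlapped normal. Of 18 metalloproteinase genes listed, 9 were at a level to be examined, and 3 were called higher and 3 lower (median log2 ratio of tumor to normal -0.24, against 0.20 over all genes examined). Over all genes 4.02% were called higher and 6.90% lower. Mmp2, the gelatinase made by resting fibroblasts, was lower without being called (133, 164, 322 and 273 CPM against 599.7). The enzyme inhibitor Timp2, which binds it, is described with the lower genes.

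In the mouse genome (GRCm38, GENCODE M21) Mmp13 (chr9:7272514-7283331), Mmp3 (chr9:7445822-7455975) and Mmp10 (chr9:7502352-7510240) lie on the plus strand within 237.7 kb of each other. The 120 bases before the start of each are shown because these 3 neighbours were higher together. They come from RefSeq (GRCm38.p6, plus strand), and capitals mark the letters TGANTCA, known as the binding letters of AP-1 (Fos and Jun proteins), a motif chosen after the levels had been seen.
Mmp13 (chr9:7272394-7272513): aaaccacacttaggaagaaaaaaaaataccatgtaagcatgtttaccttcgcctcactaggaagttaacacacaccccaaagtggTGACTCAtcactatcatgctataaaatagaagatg
Mmp10 (chr9:7502222-7502341): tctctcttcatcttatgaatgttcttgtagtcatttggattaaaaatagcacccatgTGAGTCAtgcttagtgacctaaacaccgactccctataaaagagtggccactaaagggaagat
Mmp3 (chr9:7445702-7445821): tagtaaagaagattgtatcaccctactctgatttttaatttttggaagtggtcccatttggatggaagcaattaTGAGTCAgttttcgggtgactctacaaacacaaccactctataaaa
Each stretch holds the motif at 1 place, and its first base lies 35, 63 and 46 bases before the start. Within 250 bases before the start the motif, which reads the same on both strands, was in 2217 of 32851 windows of the table (6.75%), and in any window of 2113 of 27025 genes (7.82%). Among the 11 genes that were higher in tumor and at 2 times the other cells, 9 were matched in the table and 5 held it, in 5 of 12 windows. Cp and Il11, beside the 3 enzymes, held it at 1 of their 2 starts. Of 15 such lower genes 9 were matched and 1 held it, in 1 of 9 windows. The genes were chosen by level and the motif after it, and the 3 enzymes shown are among the 5. These shares are therefore a description and carry no test. A match of letters is not a measured site. On the RNA level the AP-1 genes Fos and Jun themselves were lower in tumor, as given below.

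Secreted signals formed the next group. Il11, an interleukin-6 family cytokine made by stroma, stood at 53, 1012, 142 and 230.0 CPM in the tumor libraries against 4.89 in normal (10.8-fold, interval 2.25 to 45.7). Its receptor gene Il11ra1 was lower in tumor (39.8, 8.62, 0 and 37.4 CPM against 159), as was the shared signal chain Il6st (92.8, 77.5, 0 and 93.6 against 297). Neither of these receptor genes was called in fibroblast-rich cells or on the scale of the gate genes. Il1rl1, which encodes the receptor of interleukin 33 and also a soluble form of it, reached 292, 1547, 692 and 198 CPM against 5.70 (34.7-fold, interval 16 to 89.3). Saa3, an acute phase protein, was at 92.8, 224, 2465 and 58.8 CPM against 2.44 (24.1-fold, interval 7.23 to 126), with day 3 far above the other libraries, and was called in every version. Il11 lost its call in fibroblast-rich cells, where it stood at 197, 1727, 66.3 and 683 CPM against 6.69. Nrg1, an ErbB receptor ligand, stood at 305, 478, 104 and 393 CPM against 28.5 (3.66-fold, interval 1.68 to 7.37). It too was not called in fibroblast-rich cells (197, 733, 133 and 763 CPM against 24.1), though no tumor library overlapped normal there.

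Cp, a copper-carrying ferroxidase, stood at 292, 233, 142 and 144 CPM against 38.3 (3.71-fold, interval 1.93 to 6.76), a narrow range beside those of the enzymes. S100a4, a calcium-binding protein long used as a fibroblast marker, stood at 477, 539, 872 and 409 CPM against 121 (3.39-fold, interval 2.69 to 4.28) and was called in every version. Its level in the other cells was also above normal (159, 101, 253 and 113 CPM against 25.8). Dio2, which activates thyroid hormone, stood at 66.3, 586, 75.8 and 77.6 CPM against 0.815 (81.3-fold, interval 9.10 to 3846). The stretch-gated channel gene Piezo2 stood at 119, 1025, 152 and 66.9 CPM against 22.0 (3.04-fold, interval 1.69 to 5.44). For both of these day 1 replicate 2 stood apart from the other tumor libraries.

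**Figure D2:**
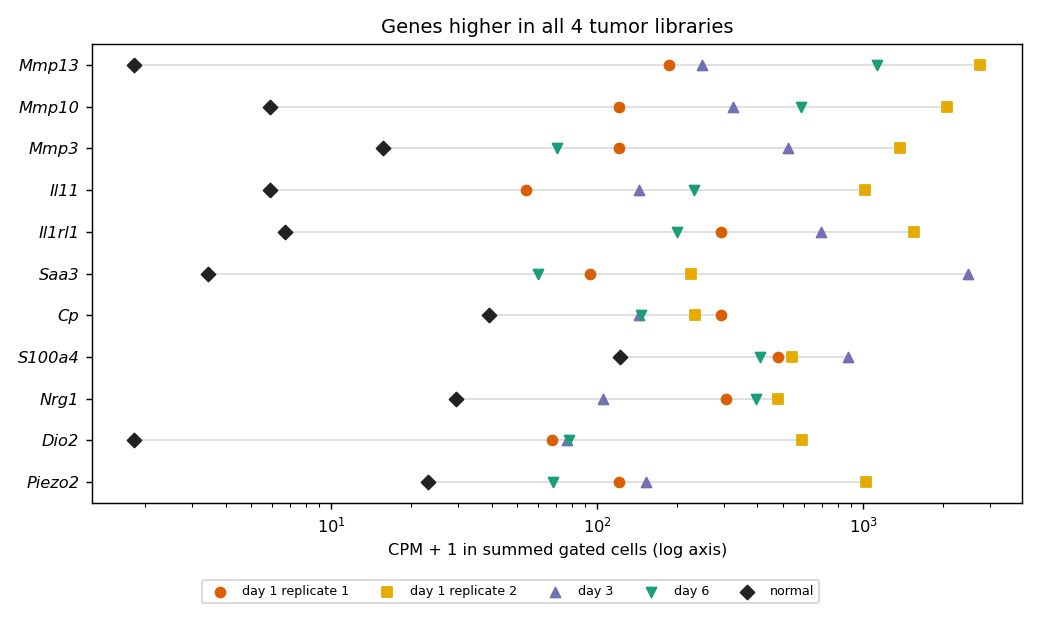
CPM plus 1 (log axis) in summed gated cells for the 11 genes that were called higher in tumor and at least 2 times the other cells of every tumor library, with 1 marker per library. All tumor markers lie to the right of the normal diamond, and Saa3 in day 3 (2465 CPM) and Mmp13 in day 1 replicate 2 (2749 CPM) are the farthest to the right.

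The number of cells that carried these genes differed between libraries. In day 6, all 419 Mmp13 UMIs came from 1 of 73 gated cells, and the same cell held 205 of 217 Mmp10 UMIs, 71 of 74 Il1rl1, 78 of 86 Il11 and 146 of 150 Cxcl1. That cell had 13731 UMIs, 155 of the gate genes and 41 of the epithelial genes. In day 1 replicate 2 the genes were spread more widely, with Mmp13 in 20 and Mmp10 in 22 of 33 cells and both in 19. At least 3 of Mmp13, Mmp10, Mmp3, Il11 and Il1rl1 were found together in 2 of 13, 19 of 33, 11 of 24 and 1 of 73 tumor cells, and in 0 of 379 normal cells. That 0 allows a share of up to 0.792% of cells with such UMIs in this 1 normal library, a limit for the sampling of its cells only. The median was 2547 UMIs a gated cell there against 5080 in day 1 replicate 2. The 0 says nothing of other normal animals or of cells expressing the genes, which were chosen for low normal levels. Of the 19 cells in day 1 replicate 2, 15 had no more epithelial than gate UMIs, and 4 of the 11 in day 3. When the top cell of each gene was left out of every library, Mmp13 in day 6 dropped to 0 CPM and its call was lost, as was that of Dio2. Cp, Il1rl1, Mmp3 and Piezo2 were not called either but stayed above normal in all 4 libraries, with log2 ratios of 2.05, 6.69, 4.86 and 3.83 (2.40, 6.90, 5.15 and 3.95 with every cell). Mmp10 then stood at 70.1, 1586, 253 and 33.3 CPM in the tumor libraries and Saa3 at 62.9, 109, 2332 and 30, still above normal. At least 1 of these 5 genes was found in 7, 23, 17 and 10 tumor cells and in 23 normal cells. At least 3 together were thus seen in 19 of 33 cells in day 1 replicate 2 and 2 of 13 in day 1 replicate 1. In day 3 it was 11 of 24, most of them with more epithelial than gate UMIs. In day 6 most UMIs of Mmp13, Mmp10, Il1rl1 and Il11 came from 1 cell.

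Other genes called higher in tumor did not reach 2 times the level of the other cells in all 4 tumor libraries. Cxcl5, a neutrophil-attracting chemokine, stood at 239, 1021, 569 and 703 CPM in gated cells and 179.8, 309, 339 and 414 in the other cells, against 7.33 and 9.19 in normal. Slpi, a protease inhibitor of epithelia and neutrophils, stood at 676, 392, 815 and 559 CPM in gated cells and 1124, 709, 650.3 and 582 in the other cells, against 8.15 and 30.4. Lcn2, an iron-sequestering defense protein, stood at 39.8, 39, 351 and 29.4 CPM, with 183, 134, 107 and 78.0 in the others, against 0.815. Wif1, a WNT antagonist, stood at 464, 60.3, 94.8 and 37.4 CPM in gated cells and at 616, 359.6, 76.9 and 7.20 in the others. Slpi, Lcn2, Sdc1 and Spint2 are also known from epithelia, and squamous markers were high in the same sums. Sdc1, a heparan sulfate proteoglycan, stood at 543, 258, 294 and 227 CPM in gated cells and 293, 160.1, 319.8 and 175 in the others, against 71.7 in normal gated cells. Spint2, a protease inhibitor, stood at 649, 383, 2057 and 661 CPM in gated cells and 1291, 932, 2024 and 1301 in the others, against 181. Slpi and Spint2 were thus as high or higher in the other cells in 3 of 4 libraries, whereas Cxcl5 and Sdc1 were not.

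Chemokines known from resting gut stroma were lower in tumor. Cxcl12, which holds immune and progenitor cells through Cxcr4, stood at 79.5, 34.5, 56.9 and 257 CPM in the tumor libraries and at 1913 in normal (7.45-fold, interval 6.07 to 9.24), and was called in every version. In the normal library 307 of 379 cells held a Cxcl12 UMI. Ccl11, the eosinophil chemokine eotaxin, had 0, 51.7, 0 and 21.4 CPM against 372 (7.20-fold, interval 4.08 to 14.0). Cxcl13, which draws B cells, had 0, 0, 9.48 and 16 CPM against 234 (at least 5.88-fold). Of 22 chemokine genes 9 were examined, and 1 was called higher and 3 lower, with a median log2 ratio of 0.99. The shares called over all genes were 4.02% higher and 6.90% lower. All 3 lower chemokines kept their call on the scale of the gate genes.

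Among cytokines, receptors of inflammation and their feedback genes, 4 of 26 were called higher and 8 lower (median log2 ratio -0.40). This list and the complement list stand beside 4.02% higher and 6.90% lower over all genes. Il6, an inflammatory cytokine of fibroblasts, stood at 26.5, 68.9, 0 and 8.02 CPM against 162 (2.35-fold, interval 1.41 to 4.20). Socs3, a feedback inhibitor of cytokine signals, stood at 199, 202, 114 and 193 CPM against 1265 (6.25-fold, interval 4.68 to 8.54), and Tnfaip6, a hyaluronan-binding protein, at 66.3, 8.62, 0 and 34.8 against 558 (8.42-fold, interval 3.59 to 26.0). Socs3 and Tnfaip6 were called in every version, Il6 in none of the other 4 except that without the top cell of each gene. Csf1, the macrophage growth factor, stood at 53, 8.62, 19.0 and 40.1 CPM against 251 (4.74-fold, interval 1.83 to 17.5). In the complement list 0 of 9 genes were called higher and 6 lower (median log2 ratio -1.89). C3 stood at 26.5, 17.2, 228 and 275 CPM against 725, with day 3 and day 6 above both day 1 libraries. In day 3, 87.5% of its UMIs came from 1 cell. Without the top cell of each library C3 stood at 0, 8.72, 31.9 and 209 CPM. In fibroblast-rich cells day 3 (66.3 CPM) lay below day 1 replicate 1 (98.3). C1s1, a protease of the first complement step, stood at 199, 94.8, 28.4 and 441 against 1352. None of the 6 complement calls held on the scale of the gate genes.

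Many matrix genes were lower in tumor. Of 32 matrix glycoproteins examined 0 were called higher and 13 lower (median log2 ratio -1.51), of 16 proteoglycans 1 and 8 (-2.20), and of 16 collagens 0 and 6 (-1.35), beside 4.02% higher and 6.90% lower over all genes. Lower calls in fibroblast-rich cells numbered 4, 6 and 2 for the same lists, and 13, 8 and 6 became 5, 5 and 1 on the scale of the gate genes. Fbln1, an elastic fibre protein, stood at 159, 12.9, 19.0 and 147 CPM in the tumor libraries and at 1471 in normal (9.25-fold, interval 5.28 to 17.9). Efemp1, its relative, stood at 79.5, 0, 19.0 and 102 CPM against 662 (6.52-fold, interval 4.71 to 9.28). The libraries were far apart here, with day 1 replicate 2 and day 3 the lowest for both. Ogn, a small proteoglycan related to lumican, had 0, 0, 0 and 16 CPM against 509 (at least 12.8-fold). Prelp (26.5, 0, 19.0 and 48.1 CPM against 352) and Dpt, which binds decorin (159, 12.9, 161 and 369 against 2110.4), were likewise lowest in day 1 replicate 2 and highest in day 6. These 5 genes were called in every version. Bgn, a further small proteoglycan, stood at 133, 228, 56.9 and 267 CPM against 1599 (5.98-fold, interval 4.89 to 7.39) and Has1, which makes hyaluronan, at 0, 17.2, 0 and 13.4 against 417 (at least 10.5-fold).

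The fibrillar collagens were not called. Col1a1 stood at 6824, 1732, 1384 and 733 CPM in the tumor libraries and at 2731 in normal, with day 1 replicate 1 above normal. Col1a2 (3882, 659, 986 and 1514 CPM against 5435) and Col3a1 (3591, 1086, 322 and 1270.4 against 4948) were below normal in all 4 libraries, but day 1 replicate 1 came within the 2-fold limit. In fibroblast-rich cells Col1a1 stood at 21044, 2849, 2718 and 2041 CPM against 3367. Col6a1, a chain of type VI collagen, was lower (689, 422, 389 and 481 CPM against 2141, 3.11-fold, interval 2.36 to 4.17), and Col14a1, which decorates collagen fibrils, more so (0, 12.9, 37.9 and 77.6 against 378, 4.87-fold, interval 3.35 to 7.36). Of the 6 collagens called, only Col14a1 kept its call on the scale of the gate genes. Postn, a matrix protein of subepithelial fibroblasts, stood at 384, 349, 104 and 505 CPM against 2923 (5.78-fold, interval 4.99 to 6.73).

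Matrix turnover genes of the normal fibroblast were lower too. Timp2, an inhibitor of metalloproteinases, stood at 199, 258, 133 and 286 CPM in the tumor libraries and at 1819 in normal (6.36-fold, interval 5.24 to 7.79), and was called in every version. The 4 tumor libraries lay within 133 to 286 CPM. Timp3, a matrix-bound inhibitor, was too low to be examined (13.3, 25.8, 0 and 8.02 CPM against 42.4). Adamdec1, a metalloproteinase-like gene of mucosal stroma, stood at 517, 4.31, 189.6 and 535 CPM against 3405 (6.37-fold, interval 5.52 to 7.37), with 1 UMI in day 1 replicate 2. Adamts1, an aggrecan-cutting enzyme, had 13.3, 25.8, 0 and 10.7 CPM against 443 (at least 15.6-fold). The serpins Serping1 (278, 349, 256 and 543 CPM against 1320.0) and Serpinh1, the collagen chaperone (517, 521, 284 and 415 against 1066), were 2.43- and 2.04-fold from the nearest library and lost their calls on the scale of the gate genes.

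Signals to the epithelium were examined by family. Of 11 BMP ligands, antagonists and targets 0 were called higher and 3 lower (median log2 ratio -1.75), of 6 WNT ligands and antagonists 1 and 3 (-1.51), and of 11 TGF-beta genes and targets 0 and 4 (-1.11), again beside 4.02% and 6.90% over all genes. Fibroblast-rich cells had 2 lower calls in the BMP list, 0 in the WNT list and 2 in the TGF-beta list, and 1, 0 and 2 held on the scale of the gate genes, where Sfrp1 and Id3 were not called. Bmp4, a ligand of the upper crypt, stood at 79.5, 396, 133 and 203 CPM in the tumor libraries and at 1723 in normal (4.35-fold, interval 3.53 to 5.42) and was called in every version. Its target Id3 stood at 517, 763, 294 and 267 CPM against 1543 (2.02-fold, interval 1.73 to 2.37). Grem1, a BMP antagonist of the crypt base, was lower by just under the 2-fold limit (26.5, 159, 66.4 and 16 CPM against 315). Sfrp1, a WNT antagonist, ranged widely among tumor libraries (318, 4.31, 66.4 and 185 CPM) and lay below normal (837, 2.63-fold, interval 1.76 to 4.13). Wnt5a overlapped (225, 388, 37.9 and 123 CPM against 246). Ctgf, a matricellular target of TGF-beta and YAP, stood at 106, 155, 75.8 and 61.5 CPM against 1384 (8.92-fold, interval 6.42 to 12.8), and Cyr61, its relative, at 79.5, 185, 47.4 and 53.5 against 866 (4.68-fold, interval 3.45 to 6.50). Both were called in every version, and both were also called lower in the other cells (36.6, 34.3, 32.2 and 8.79 CPM against 107 for Ctgf).

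Contractile genes were lower in tumor, with 0 of 21 called higher and 12 lower (median log2 ratio -2.08), beside 4.02% and 6.90% over all genes. Acta2, smooth muscle actin, stood at 769, 556, 256 and 329 CPM in the tumor libraries and at 3223 in normal (4.19-fold, interval 3.24 to 5.53). Tagln, an actin-binding protein, stood at 172, 64.6, 66.4 and 107 CPM against 1814 (10.5-fold, interval 6.14 to 19.8) and Myh11, smooth muscle myosin, at 13.3, 90.5, 9.48 and 56.2 against 984 (10.9-fold, interval 7.09 to 17.6). Actg2, enteric actin, had 26.5, 8.62, 28.4 and 16 CPM against 452 (15.9-fold, interval 5.41 to 77.3), from 48 of the 379 normal cells. Mural cells made up 1 of 13, 9 of 33, 0 of 24 and 2 of 73 gated tumor cells and 74 of 379 gated normal cells. These counts do not tell pericytes from smooth muscle cells. Pericyte markers summed to 623, 2886, 104 and 69.5 CPM in the tumor libraries and to 862 in normal. The part of mural cells in these levels was not tested. In fibroblast-rich cells 0 of 17 contractile genes were called, with a median log2 ratio of -0.16, and Acta2 there stood at 2655, 538, 133 and 191 CPM against 1051. Without mural cells Actg2 and Cnn1 changed sign to 1.18 and 0.31 (log2 ratio of tumor to normal), but Actg2 and Myh11 define those cells, so that leaving them out lowers such genes in normal by construction. Of 23 receptors on the list 0 were called higher and 8 lower (median log2 ratio -1.33), beside 4.02% and 6.90% over all genes. In fibroblast-rich cells 2 receptors were called lower, and 2 of the 8 held on the scale of the gate genes. Of 14 growth factors 1 was called in each direction (7.14% each way), from which nothing follows. Of 5 pericyte markers examined 0 were called, and Pdgfrb overlapped normal (265, 302, 56.9 and 37.4 CPM against 158).

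Markers of normal fibroblast subtypes differed among themselves. Of 12 trophocyte and adventitial markers 0 were called higher and 8 lower (median log2 ratio -2.41), and in fibroblast-rich cells 4 of 13. On the scale of the gate genes 5 of the 8 calls held. Over all genes 4.02% were called higher and 6.90% lower, beside which each list of this paragraph is to be read. Cd34, a sialomucin of adventitial fibroblasts, stood at 0, 12.9, 19.0 and 58.8 CPM in the tumor libraries against 562 in normal (9.56-fold, interval 6.26 to 15.3). Clec3b, which encodes tetranectin, stood at 13.3, 4.31, 75.8 and 241 CPM against 1459 (6.06-fold, interval 4.9 to 7.57), again highest among tumors in day 6. Of 7 telocyte markers 1 was called higher (Nrg1) and 1 lower: Pdgfra stood at 265, 314, 114 and 118 CPM against 727 (2.31-fold, interval 1.82 to 2.98), a call lost in fibroblast-rich cells (295, 531, 331 and 262 CPM against 622). Of 25 transcription factors of fibroblasts 0 were called higher and 6 lower. In fibroblast-rich cells 4 were called lower, and 3 of the 6 held on the scale of the gate genes. Tcf21, which marks gut and cardiac fibroblast progenitors, stood at 79.5, 21.5, 0 and 120.4 CPM against 1257 (10.4-fold, interval 7.77 to 14.4), and 297 of 379 normal cells held it. It was called in every version. Osr1, another mesenchymal factor, stood at 0, 4.31, 0 and 45.5 CPM against 316 (6.95-fold, interval 4.29 to 12.1).

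**Figure D3:**
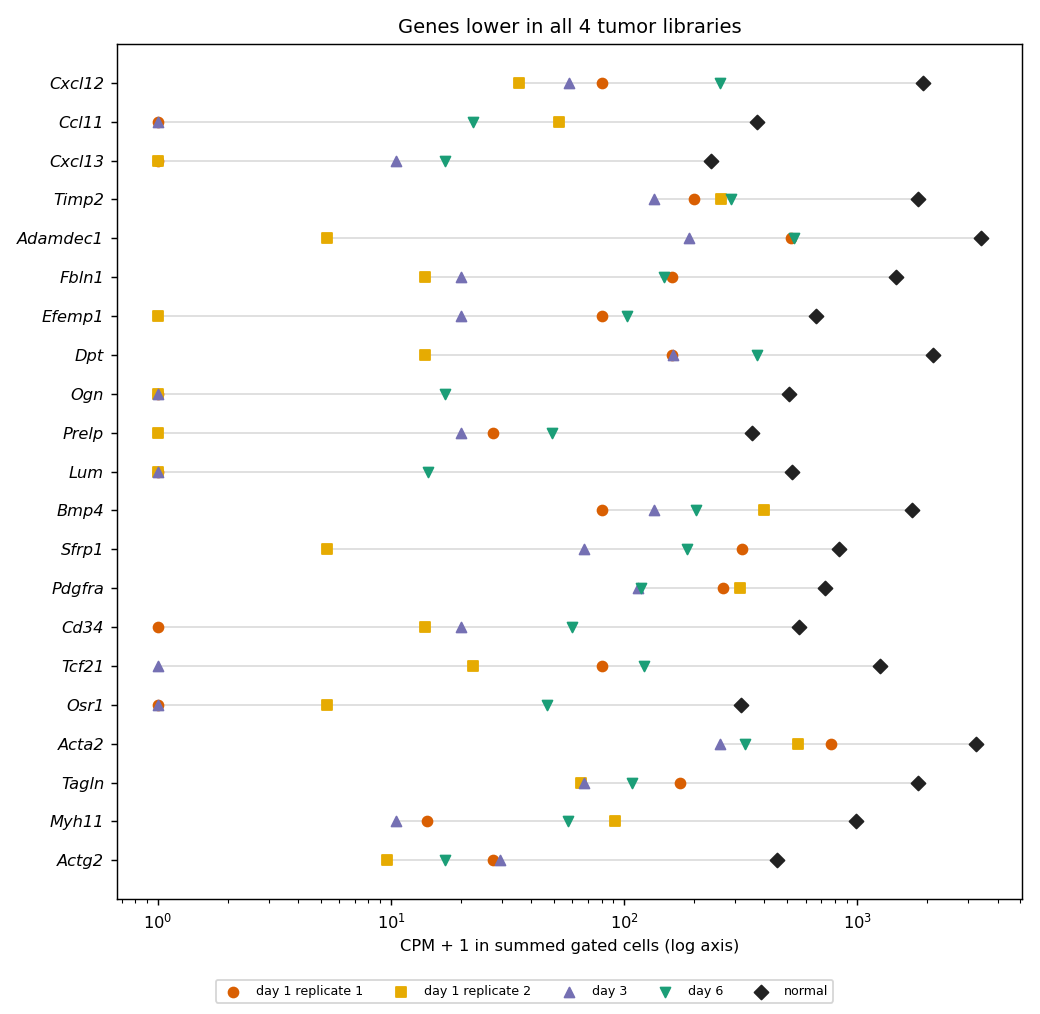
CPM plus 1 (log axis) in summed gated cells for 20 genes called lower in tumor and the gate gene Lum, with 1 marker per library. The normal diamond is the rightmost marker in each row, markers at 1 stand for 0 UMIs, and some markers overlie each other.

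Early response and heat shock genes held the widest gap of the 292 lower genes, that of Egr1, with 0 of 32 called higher and 18 lower (median log2 ratio -2.19), 13 of them in every version. The shares over all genes were 4.02% and 6.90%. Fos, an AP-1 subunit, stood at 106, 129, 237 and 118 CPM in the tumor libraries and at 7466 in normal (31.5-fold, interval 21.3 to 48.7). Egr1, an early growth response factor, had 66.3, 64.6, 9.48 and 61.5 CPM against 3568 (53.9-fold, interval 23.1 to 166), and Atf3, a stress factor, 0, 21.5, 9.48 and 8.02 against 1045 (at least 26.3-fold). Hspa1a, an inducible Hsp70, stood at 39.8, 64.6, 0 and 50.8 CPM against 1079 (16.7-fold, interval 10.1 to 29.9). The other cells moved the same way: in the other cells, Fos stood at 256, 336, 230.4 and 298 CPM in the tumor libraries and 4285 in normal, and Atf3 at 38.2, 33.0, 26.2 and 23.6 against 1866. Of the 18 genes 17 were also called lower in the other cells. Dissociation, a known source of early response RNA, differed between the groups and cannot be told apart from tumor or drugs. Btg2, a p53 and stress target, behaved alike (26.5, 64.6, 28.4 and 45.5 CPM against 1398, others 117, 152, 48.4 and 67.1 against 1173). Jun stood at 79.5, 81.9, 152 and 88.3 CPM against 2691 (17.7-fold, interval 10.9 to 31.1).

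**Figure D4:**
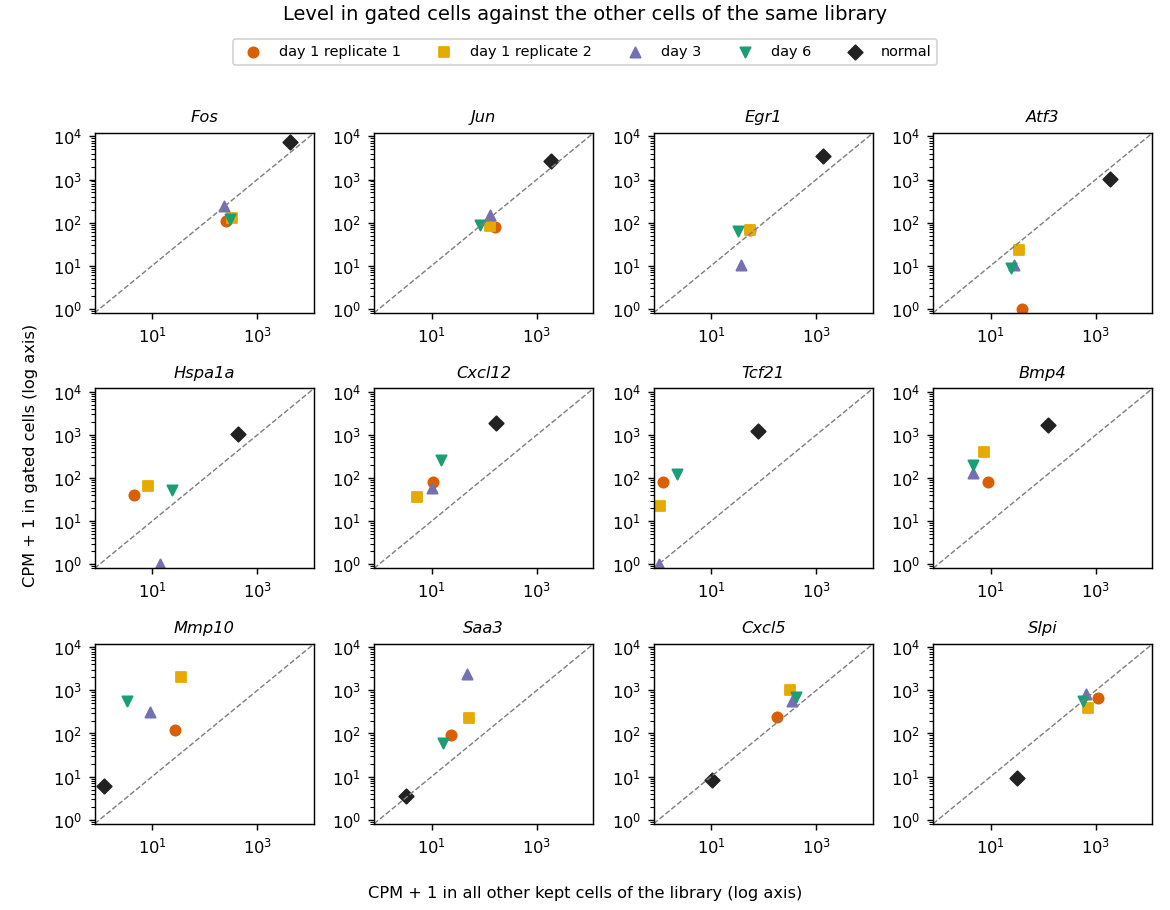
Each panel shows 1 gene, with CPM plus 1 in the other kept cells of a library on the x axis and in gated cells on the y axis (both log axes), 1 marker per library and a dashed line of equal levels. Fos, Jun, Egr1 and Atf3 are high in both kinds of cells of the normal library, Cxcl12, Tcf21 and Bmp4 lie above the line in normal, Mmp10 lies above the line in every library, and Slpi lies near the line in tumor.

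The remaining lists are to be read beside 4.02% higher and 6.90% lower over all genes, and with so few members nothing follows from a single call. Of 20 interferon and antigen presentation genes 0 were called in either direction (median log2 ratio 0.03), of 5 IGF-binding proteins 0, of 2 posterior Hox genes 0, and of 10 collagen processing genes 1 was lower (Loxl1). Of 24 genes of the endoplasmic reticulum and secretion 0 were higher and 2 lower, Atf4 and Hspa5. Of 17 hypoxia and glycolysis genes 2 were called higher: the glycolytic enzyme Pkm (941, 1059.8, 1469 and 653 CPM against 257) and the glucose transporter Slc2a1 (119, 99.1, 114 and 82.9 against 33.4). Pkm had like levels in the other tumor cells (951, 881, 1644 and 619.7 CPM). Of 10 p53 targets 1 was higher, Perp, which is also a desmosome gene (358, 246, 237 and 554 CPM against 28.5, others 301, 316, 265 and 662), and 1 lower, Btg2. Of 7 proliferation genes 1 was higher, Top2a (146, 56.0, 94.8 and 90.9 CPM against 15.5, others 89.9, 90.7, 162 and 218), the enzyme that untangles DNA. In the vitamin A and lipid list Stra6, a retinol transporter, was higher (39.8, 112, 218 and 195 CPM against 0) and Aldh1a1, which makes retinoic acid, lower (0, 12.9, 0 and 42.8 against 290.1). Stra6 stood at 70.5, 85.5, 114 and 96.2 CPM in the other cells against 1.09, and was not called in fibroblast-rich cells.

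Genes that the study names in its account of CAFs were followed as a list of 21, which is not independent evidence of direction because it was chosen on samples of this study. Of 20 examined, 6 were called higher (Cxcl5, Il11, Il1rl1, Mmp10, Mmp13 and Mmp3) and 6 lower (Acta2, Cxcl12, Il6, Pdgfra, Sfrp1 and Timp2), with a median log2 ratio of 0.00. The shares over all genes were 4.02% higher and 6.90% lower. Of the 12, Mmp10 and Cxcl5 among the higher and Cxcl12 and Timp2 among the lower were called in every version. Cxcl1, a neutrophil chemokine, overlapped normal (53, 1891, 351 and 401 CPM against 339), and so did the growth factor Igf1 (278, 34.5, 9.48 and 115 against 114) and the matrix protein Tnc (437, 974, 180.1 and 166 against 342). Cxcl14 lay above normal in all 4 libraries (676, 116, 540.4 and 158 CPM against 66.8) without reaching the limit. In fibroblast-rich cells it was called (2114, 194, 1657 and 381 CPM against 39).

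**Figure D5:**
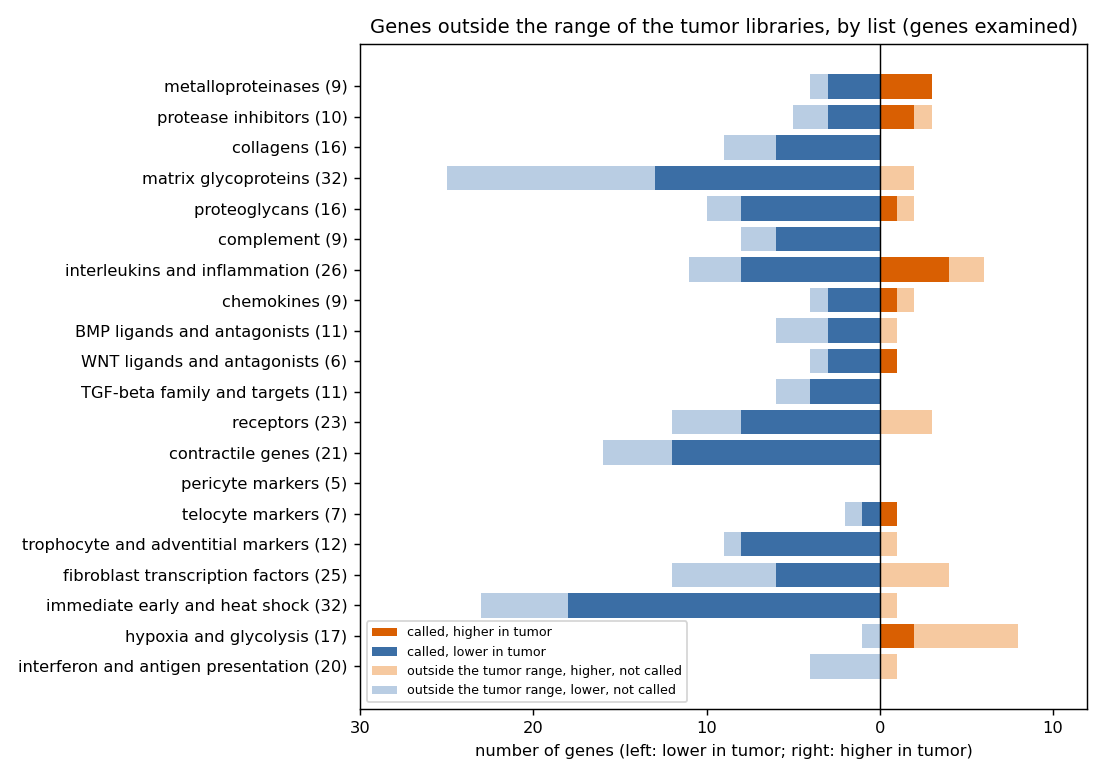
Genes per list whose normal level lay outside the range of the 4 tumor libraries, to the left when lower and to the right when higher in tumor, with called genes in dark and uncalled ones in light color and the number of genes examined in parentheses. Matrix glycoproteins (13 called lower), contractile genes (12) and early response genes (18) extend far to the left, and metalloproteinases have 3 called genes on each side.

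Change within the gated tumor cells was tested between day 1 (early, 2 libraries) and days 3 and 6 (late, 2 libraries). This difference did not choose the genes. More epithelial than gate UMIs were found in 7 of 13 and 10 of 33 early cells and in 19 of 24 and 55 of 73 late cells. The sums are thus not of fibroblast RNA alone. The p-values measure the spread between these libraries, since the labels do not say which came from separate animals. By edgeR's quasi-likelihood test with Benjamini-Hochberg adjustment, 0 of 4045 genes were called higher and 0 lower late (0% in each direction), with 183 genes at an unadjusted p under 0.05 and a smallest adjusted p of 0.745. DESeq2 called 2 higher (Ltf and Lypd8) and 5 lower (Hba-a1, Hba-a2, Hbb-bs, Col4a1 and Rpl39), genes named here after their values were seen. Hemoglobin genes mark red blood cells, Ltf is a neutrophil and glandular protein and Lypd8 a colonocyte protein. Leaving out day 1 replicate 1 gave 19 higher and 32 lower in edgeR, and leaving out day 6 gave 30 and 44, each with a lone library on that side. C3 had the smallest p among the named genes, a log2 change of 3.72 (SE 0.66, edgeR adjusted p = 0.745), and Pdgfrb followed, a log2 change of -2.52 (SE 0.60, edgeR adjusted p = 0.854). Of the C3 UMIs in day 3, 87.5% came from 1 cell. Mmp13 stood at a log2 change of -0.99 (SE 1.22, edgeR adjusted p = 0.949) and Mmp10 at a log2 change of -1.17 (SE 1.15, edgeR adjusted p = 0.94). No difference of Mmp13 or Mmp10 between the days was thus detected.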

How the data were processed

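Single-cell RNA was captured on the inDrop platform in 5 mouse colon libraries. The authors aligned the reads with dropEst to GRCm38 and deposited raw UMI counts per gene and barcode, not normalized. Here barcodes with at least 500 genes and at most 15% mitochondrial UMIs were kept, gated as the report states and summed per library. No doublets were removed, and 4 to 41 barcodes were shared between any 2 libraries.

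Levels are CPM, UMIs per 1000000 UMIs of the sum. Tumor against normal has no test, and a count of 0 was set at 3 counts in folds. Late against early sums were tested with edgeR 4.0.16 (quasi-likelihood, TMM, adjusted p of 0.05) in R 4.3.3, with DESeq2 1.42.0 as an alternative. The call rule and the edgeR fit were tested on simulated data. Members, lists and tests were chosen with earlier results of these data known. The alternatives are other scalings, gates, filters, call limits and left-out libraries. Leaving out cells richer in epithelial than gate UMIs, scaling to the gate genes and leaving out the top cell of each gene were chosen after seeing the data.

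Named genes were called genes at 2 or more times the level of the other cells (the 15 widest in each direction), up to 4 called members a list and direction, and the genes of the study's CAF list. Gate genes, ribosomal and mitochondrial genes, Xist and Y-linked genes were left out of the first 2 parts. Clec3b, Col1a1, Col1a2, Col3a1, Dpt, Il11ra1, Il6st, Jun, Krt5 and Postn were outside this rule and were named after their values were seen. Day 1 counts as early and days 3 and 6 as late, as in the study.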

Additional observations from a re-analysis of the deposited data

Results flagged for a closer look

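Among the 102 named genes, 13 had a tumor library far from the other 3 by Dixon's criterion. Chance alone flags about 1 in 20 if values are normally distributed, which was not checked for CPM. Ogn, Hhip and Mfap5 were at 0 in the other 3 libraries, where any UMI in 1 library is flagged. The far library was the highest for 11 genes. In day 1 replicate 2, Dio2 stood at 585.89 CPM and Piezo2 at 1025.3 CPM. In day 3, Saa3 stood at 2464.8 CPM, Spint2 at 2057.1 CPM and Lcn2, a defense protein, at 350.75 CPM. Day 6 held the highest level of Ogn (16.047 CPM), Hhip (61.513 CPM), Mfap5 (32.094 CPM), Osr1 (45.466 CPM) and Klf4 (526.87 CPM). Wif1 was highest in day 1 replicate 1, at 463.76 CPM. For Egr1 and Socs3 day 3 was far below the others, at 9.4798 and 113.76 CPM. Each tumor library is 1 sum of 13 to 73 cells, and no explanation was tested.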

How the results depend on the processing

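The number of genes called between tumor and normal depended on the scale and the gate. Beside 170 higher and 292 lower, it was 103 and 476 with TMM factors, 110 and 452 with DESeq2 size factors, 87 and 104 in fibroblast-rich cells, 74 and 72 without cells richer in epithelial than gate UMIs, and 926 and 84 on the scale of the gate genes. The share of calls that were higher was 36.8% by CPM, 17.8% with TMM factors, 19.6% with DESeq2 size factors and 91.7% on the gate scale. TMM, DESeq2 and gate scaling shifted the log2 ratio of the 4233 genes by a median of -0.36, -0.31 and 1.24. Higher calls numbered 101 without the top cell of each gene, 383 with dual index libraries alone, 97 above 100.0 CPM and 103 at a limit of 3 times, with 183 lower at that limit. With no minimum fold the counts were 1086 and 965. Leaving out 1 tumor library gave 212 to 258 higher and 321 to 378 lower calls, with 258 higher without day 3. With fewer tumor libraries, as here and with dual index libraries alone, the range cannot be wider, so counts tend to rise by construction. Among 93 called named genes, 43 to 92 were still called under each alternative, and only Actg2 (1.18) and Cnn1 (0.31) changed sign, both without mural cells, which Actg2 itself helps to define. Late against early, DESeq2 called 2 higher and 5 lower, and edgeR 20 and 30 with no filter beyond 1 count. Leaving out 1 library gave 0 to 30 higher and 0 to 44 lower, 19 and 32 without day 1 replicate 1. With library structure as a block, DESeq2 size factors or a gate of 10 UMIs the count was 0 in both directions, beside 183 genes at an unadjusted p under 0.05 in edgeR. No paired analysis was possible because replicate numbers do not pair tumor with normal. The cause of these shifts was not tested. The 3 counts put in place of 0 in folds equal 8.02 to 39.8 CPM in tumor and 2.44 in normal.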
